A study of Mus musculus with 8 samples.

Results

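The genes described here are 40 genes of granulocytes and monocytes, read in pre-BII cells that were sorted from the bone marrow of wild type mice, of OBF-1-/- and Aiolos-/- single mutants and of the double mutant. They were chosen by name, as genes of granule proteins, of growth factor receptors, of surface receptors, of the phagocyte oxidase and of the transcription regulators of these cells. The MOE430A array held a probe set matched to that gene alone for 37 of the 40, out of 12393 genes so matched in all, and the probe set with the highest mean over the 8 arrays stood for its gene. Fcnb, Ly6g and Cebpe were not analysed here. The question was whether the granule, monocyte and regulator genes moved together, array by array and genotype by genotype.

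All mice were of the Bl6 strain and 7 weeks old, and the mutants were conventional deletions, so that every cell of a mutant mouse, myeloid cells included, lacked Aiolos (Ikzf3), OBF-1 (Pou2af1) or both. According to the methods of the study, B220+ CD25+ pre-BII cells were sorted from bone marrow pooled from 8 mice, with 2 independent pools per genotype. Each array is taken here as 1 pool, which the methods do not state. In the deposited labels each sample is simply bone marrow, the mutant ones of one deletion mouse, with no word of sorting or pooling, so what an array stands for rests on the methods. Only the surface proteins B220 and CD25 define the sorted cells in that account.

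Neutrophils build their granules in turn while they mature in the bone marrow: primary granules with myeloperoxidase and serine proteases come at the promyelocyte stage, and secondary and later granules with lactoferrin, cathelicidin and gelatinase follow. Transcription factors of the C/EBP family, PU.1 and Gfi1 govern this program, and the receptors for G-CSF, M-CSF and GM-CSF carry the growth factor signals of granulocytes and monocytes. Pre-B cells make no such granules, while granulocytes and their precursors are abundant cells of mouse bone marrow.

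The deposited intensities are linear and were normalized between arrays by the authors with RMA, and units below are units of that scale. Changes are log2 fold changes from limma with 1 mean per genotype over 22626 probe sets, and a gene was called changed at a Benjamini-Hochberg adjusted p under 0.05. Intensities of different genes are not compared with each other, since probe sets bind with different strength. Array medians lay between 66.8 and 69.4 units, and the r between the 2 arrays of a genotype, over all probe sets, was 0.9961 to 0.9965. Pou2af1, the gene of OBF-1, was at 2761 and 2678 units in wild type, at 2434 and 2842 in Aiolos-/- cells, at 241 and 236 in OBF-1-/- cells and at 170.1 and 273 in the double mutant. Ikzf3 was not analysed here. Of 12 listed pre-B cell markers 11 were measured. Cd79a, the signalling chain of the B cell receptor, lay between 7079 and 9365 units, and Cd79b between 3426 and 6215. Rag1 lay between 2568 and 3237 and Il2ra, which encodes CD25, between 396 and 703. Pax5, the 1 marker of the list below 100 units on all arrays, lay between 58.4 and 72.6. Fluidics station 2 was used for the wild type and OBF-1-/- arrays, and station 1 for those of the Aiolos-/- and double-mutant cells. Loss of Aiolos and station therefore cannot be told apart in the Aiolos and double-mutant comparisons with wild type, nor in that of the double mutant with OBF-1-/- cells. Precision is limited by the number of arrays, 2 for each genotype. Each array is bulk RNA, in which fewer cells of a type and less RNA per cell cannot be told apart.

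Signal of the granulocyte and monocyte genes was present on every array. Of the 37 genes, 27 had a mean over the 8 arrays of at least 100 units, 25 were at or above 100 units on all arrays, and 7 were below 100 on all. Between 25 genes (wild type replicate 2) and 30 genes (OBF-1-/- replicate 2) reached 100 units on an array, where 40.4 to 41.1% of all probe sets did. Against wild type, 4 of the 37 genes rose in OBF-1-/- cells (0.946% of all probe sets were called higher), 2 in Aiolos-/- cells (0.831%) and 12 in the double mutant (4.29%). None of the 37 was called lower in these comparisons, where 1.14%, 1.01% and 4.28% of all probe sets were. The genes called in OBF-1-/- cells were all of secondary granules or of lysozyme, and those of the double mutant came from both granule classes and from the receptor and regulator genes. Array by array, the groups did not all share one order. The mean level of all 37 genes together was highest on OBF-1-/- replicate 2. So were those of secondary granule genes, of calprotectin and other granulocyte proteins and of surface receptors. Regulators were about equally high on that array and on double-mutant replicate 2. Primary granule genes were at their highest on double-mutant replicate 1, and growth factor receptors and oxidase subunits on Aiolos-/- replicate 1.

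**Figure D1:**
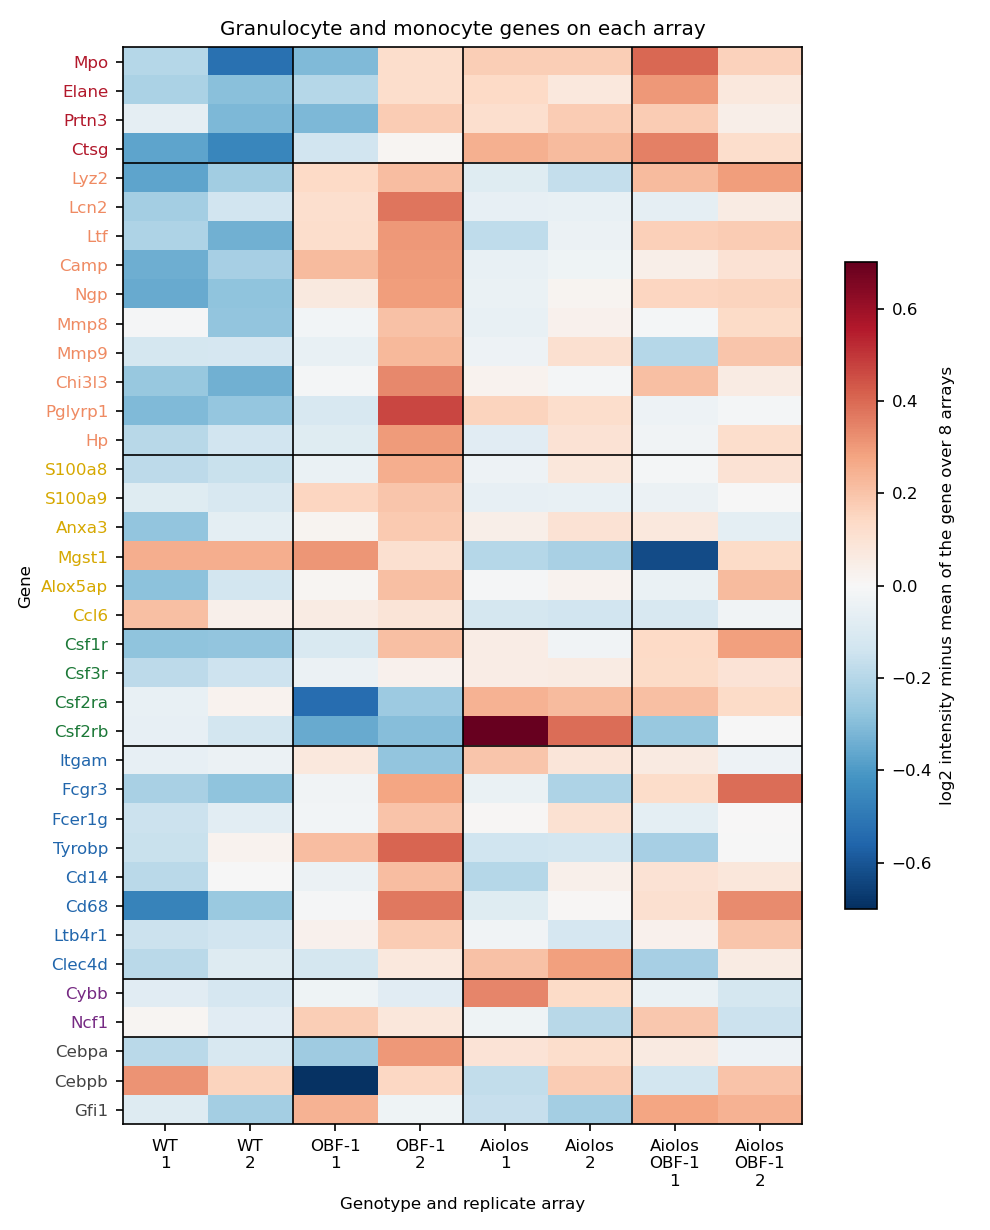
Each row is 1 of the 37 genes and each column 1 of the 8 arrays; the colour is the log2 intensity minus that gene's mean over the 8 arrays, and gene names are coloured by role group in the order of the text. Most genes are blue on both wild type arrays. On OBF-1-/- replicate 2, 32 of 37 lie above their own mean, as do 51.6% of all probe sets. Csf2rb on Aiolos replicate 1 and Cebpb on OBF-1 replicate 1 lie at the ends of the colour scale.

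The promoters of 6 called granule genes are shown because 3 of them belong to primary and 3 to secondary granules, and because C/EBP factors and PU.1 are known regulators of both. Each sequence is the RefSeq window from 250 bases before to 50 bases after the annotated start, 300 bases in build GRCm38.p6, read 5′ to 3′ on the gene's strand. Capitals mark matches to TTNNGCAA (or TTGCNNAA, its other strand), a C/EBP motif, and to GAGGAA (or TTCCTC), a core of PU.1 sites. Mpo lies at chr11:87793534-87793833 on the plus strand, Elane at chr10:79886062-79886361 on the plus strand and Ctsg at chr14:56102525-56102824 on the minus strand. Ltf lies at chr9:111019042-111019341 on the plus strand, Camp at chr9:109849407-109849706 on the minus strand and Ngp at chr9:110419558-110419857 on the plus strand.
Mpo: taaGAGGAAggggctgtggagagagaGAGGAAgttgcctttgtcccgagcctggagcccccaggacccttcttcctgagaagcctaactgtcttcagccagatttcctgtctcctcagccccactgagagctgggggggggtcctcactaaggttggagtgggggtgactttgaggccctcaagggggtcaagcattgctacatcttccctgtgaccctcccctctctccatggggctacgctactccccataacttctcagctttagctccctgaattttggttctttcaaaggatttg
Elane: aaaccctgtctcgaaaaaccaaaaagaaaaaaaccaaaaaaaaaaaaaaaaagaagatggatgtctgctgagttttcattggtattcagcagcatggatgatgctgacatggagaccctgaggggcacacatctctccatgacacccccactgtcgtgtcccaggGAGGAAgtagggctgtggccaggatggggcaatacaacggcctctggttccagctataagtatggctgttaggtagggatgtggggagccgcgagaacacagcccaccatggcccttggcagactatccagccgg
Ctsg: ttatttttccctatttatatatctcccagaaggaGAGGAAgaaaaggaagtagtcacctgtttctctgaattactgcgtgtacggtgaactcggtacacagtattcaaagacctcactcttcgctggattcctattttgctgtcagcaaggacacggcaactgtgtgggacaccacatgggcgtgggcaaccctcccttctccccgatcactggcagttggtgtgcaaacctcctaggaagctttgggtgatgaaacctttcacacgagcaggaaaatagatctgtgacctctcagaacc
Ltf: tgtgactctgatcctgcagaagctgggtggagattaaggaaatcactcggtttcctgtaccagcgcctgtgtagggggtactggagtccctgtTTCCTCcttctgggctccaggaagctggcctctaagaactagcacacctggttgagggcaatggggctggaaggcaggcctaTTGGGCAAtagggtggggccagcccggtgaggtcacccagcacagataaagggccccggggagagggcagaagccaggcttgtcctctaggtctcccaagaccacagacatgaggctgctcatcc
Camp: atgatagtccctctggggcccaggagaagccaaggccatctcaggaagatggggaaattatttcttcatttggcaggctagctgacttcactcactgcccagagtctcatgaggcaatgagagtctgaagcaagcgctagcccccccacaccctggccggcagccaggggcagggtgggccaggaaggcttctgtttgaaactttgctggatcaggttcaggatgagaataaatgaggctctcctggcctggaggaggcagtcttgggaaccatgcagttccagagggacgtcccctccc
Ngp: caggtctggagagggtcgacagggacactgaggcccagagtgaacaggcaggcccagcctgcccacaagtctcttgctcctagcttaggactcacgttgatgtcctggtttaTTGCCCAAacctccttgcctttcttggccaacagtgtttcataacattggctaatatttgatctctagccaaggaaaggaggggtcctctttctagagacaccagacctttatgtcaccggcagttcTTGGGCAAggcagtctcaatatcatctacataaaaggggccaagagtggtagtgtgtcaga

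The 3 primary granule windows hold GAGGAA and no match to the C/EBP letters: 2 matches in Mpo, 1 in Elane and 1 in Ctsg. Among the secondary granule genes, Ngp has 2 C/EBP matches, Ltf has 1 of each motif, and Camp has neither. The other 2 called granule genes, Lyz2 and Chi3l3 (Chil3 in RefSeq), have no match to either motif in their windows. RefSeq windows were matched for 29 of the 37 genes, 32 windows in all. The C/EBP letters occurred in 10 of the 32 windows (31.2%) and in 10.8% of all 32851 windows, and the PU.1 letters in 19 of 32 (59.4%) and in 28.3% of all. These are matches of letters in a window, not sites shown to be bound.

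The 4 measured primary granule genes encode myeloperoxidase (Mpo), neutrophil elastase (Elane), proteinase 3 (Prtn3) and cathepsin G (Ctsg). All 4 had positive log2 fold changes in each mutant, with medians of 0.24 in OBF-1-/- cells, 0.45 in Aiolos-/- cells and 0.54 in the double mutant. None was called in OBF-1-/- cells, Ctsg rose in Aiolos-/- cells, and Mpo, Elane and Ctsg rose in the double mutant.

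Mpo, whose product makes hypochlorous acid, had 1019 and 816 units in wild type, 945 and 1276 in OBF-1-/- cells, 1318 and 1321 in Aiolos-/- cells and 1547 and 1309.8 in the double mutant. The Aiolos-/- and double-mutant arrays all lay above the other 4, while the OBF-1-/- arrays lay on either side of wild type replicate 1. Mpo rose in the double mutant from 918 ± 143 to 1428 ± 168 units (SD, n = 2 arrays each; log2 fold change 0.64, standard error 0.15, limma adjusted p = 0.0195). In Aiolos-/- cells its log2 fold change was 0.53 (limma adjusted p = 0.0955), which did not pass.

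Elastase, from Elane, showed the same order of genotype means, with 802 and 765 units in wild type, 814 and 1019.5 in OBF-1-/- cells, 1030.2 and 986 in Aiolos-/- cells and 1156 and 985 in the double mutant. All 6 mutant arrays lay above both wild type arrays, and OBF-1-/- replicate 2 lay among the Aiolos-/- and double-mutant arrays. It rose in the double mutant (log2 fold change 0.45, standard error 0.12, limma adjusted p = 0.0401). For Prtn3 the values were 539 and 453 units in wild type, 453 and 638 in OBF-1-/- cells, 611 and 638 in Aiolos-/- cells and 638 and 580.4 in the double mutant. Here wild type replicate 2 and OBF-1-/- replicate 1 were about equally low, and no comparison passed (log2 fold change 0.30 in the double mutant, limma adjusted p = 0.27).

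Ctsg had 219 and 206 units in wild type, 257 and 284 in OBF-1-/- cells, 335 and 329 in Aiolos-/- cells and 359.7 and 308 in the double mutant. Both wild type arrays were lowest, both OBF-1-/- arrays came next, and the 4 arrays without Aiolos were highest. It rose in Aiolos-/- cells (log2 fold change 0.65, standard error 0.10, limma adjusted p = 0.0129) and by the same amount in the double mutant (log2 fold change 0.65, standard error 0.10, limma adjusted p = 0.002). The difference between the double mutant and Aiolos-/- cells was 0.00 (95% interval -0.22 to 0.23). In OBF-1-/- cells Ctsg had a log2 fold change of 0.35 (limma adjusted p = 0.133).

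The 10 measured genes of secondary and later granules had positive log2 fold changes in all 3 mutants. Their medians were 0.47 in OBF-1-/- cells, 0.18 in Aiolos-/- cells and 0.31 in the double mutant, where over all probe sets they were 0.02, 0.03 and 0.01. In OBF-1-/- cells 4 of the 10 rose (0.946% of all probe sets), and in the double mutant 5 (4.29%). None was called in Aiolos-/- cells, where 4 of the 10, and 18.8% of all probe sets, had an unadjusted p under 0.05 in limma.

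Lyz2, lysozyme M of granulocytes and macrophages, had 1259.9 and 1376 units in wild type, 1793 and 1891 in OBF-1-/- cells, 1534 and 1450.3 in Aiolos-/- cells and 1896 and 1995 in the double mutant. The 4 arrays without OBF-1 all lay above the 4 arrays with OBF-1. Lyz2 rose in OBF-1-/- cells from 1318 ± 82.5 to 1842 ± 69.3 units (SD, n = 2 arrays each; log2 fold change 0.48, standard error 0.093, limma adjusted p = 0.0193) and in the double mutant to 1945 ± 70.2 (log2 fold change 0.56, standard error 0.093, limma adjusted p = 0.00268). Between the double mutant and Aiolos-/- cells, arrays of one fluidics station, its log2 fold change was 0.38 (limma adjusted p = 0.0517).

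Ltf, the iron-binding lactoferrin, gave a similar split, with 1801 and 1662 units in wild type, 2284 and 2582 in OBF-1-/- cells, 1852 and 2037 in Aiolos-/- cells and 2349 and 2370.4 in the double mutant. Again no array with OBF-1 reached the lowest array without it. It rose in OBF-1-/- cells (log2 fold change 0.49, standard error 0.10, limma adjusted p = 0.0259) and in the double mutant (log2 fold change 0.45, standard error 0.10, limma adjusted p = 0.0163). Camp, the cathelicidin peptide precursor, read 2214 and 2388 units in wild type, 3269 and 3455 in OBF-1-/- cells, 2706 and 2753 in Aiolos-/- cells and 2888 and 3014 in the double mutant. Its OBF-1-/- arrays were the highest of the 8 and its wild type arrays the lowest, with the other genotypes between them. The rise of Camp was 0.55 in OBF-1-/- cells (standard error 0.091, limma adjusted p = 0.00825) and 0.36 in the double mutant (standard error 0.091, limma adjusted p = 0.0298).

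Ngp, neutrophilic granule protein, was measured at 4244 and 4461 units in wild type, 5690.4 and 6655 in OBF-1-/- cells, 5252 and 5503 in Aiolos-/- cells and 6013 and 6045 in the double mutant. Every mutant array lay above both wild type arrays, and OBF-1-/- replicate 2 stood highest. It rose in OBF-1-/- cells (log2 fold change 0.50, standard error 0.10, limma adjusted p = 0.0224) and in the double mutant (log2 fold change 0.47, standard error 0.10, limma adjusted p = 0.0119). Chi3l3, a chitinase-like protein now named Chil3, had 876 and 837 units in wild type, 1045 and 1334 in OBF-1-/- cells, 1075 and 1046 in Aiolos-/- cells and 1219 and 1097 in the double mutant. All 6 mutant arrays lay above wild type, and the gene rose in the double mutant (log2 fold change 0.43, standard error 0.12, limma adjusted p = 0.0408). The mean of OBF-1-/- cells was slightly above that of the double mutant, but its replicate 2 stood far above replicate 1, and the change of 0.46 did not pass (limma adjusted p = 0.0747).

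Lcn2 encodes lipocalin 2, which binds bacterial siderophores, and was at 1399 and 1502 units in wild type, 1785 and 2132 in OBF-1-/- cells, 1581 and 1589 in Aiolos-/- cells and 1576 and 1713 in the double mutant. Its OBF-1-/- arrays were the highest of the 8, with a log2 fold change of 0.43 against wild type that did not pass (limma adjusted p = 0.0678). Pglyrp1, a peptidoglycan recognition protein, had 404 and 416 units in wild type, 464 and 694 in OBF-1-/- cells, 560.1 and 546 in Aiolos-/- cells and 489 and 497 in the double mutant. The high value of OBF-1-/- replicate 2 stood apart from the other arrays, and no comparison passed.

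Mmp8, neutrophil collagenase, showed 249 and 207 units in wild type, 247 and 288 in OBF-1-/- cells, 242 and 256 in Aiolos-/- cells and 248 and 274 in the double mutant. Wild type replicate 1 lay within the range of the mutants, so wild type overlapped each of them. For Mmp9, the gelatinase of the last granules to form, the values were 171 and 171 units in wild type, 179.5 and 218 in OBF-1-/- cells, 181 and 201 in Aiolos-/- cells and 162 and 213 in the double mutant. Here double-mutant replicate 1 was the lowest of the 8 arrays and OBF-1-/- replicate 2 the highest. The other probe set of Mmp9, with a mean of 186.5 units, had a change of 0.32 in the double mutant (limma adjusted p = 0.0572). Haptoglobin, from Hp, had 279.9 and 292 units in wild type, 301 and 393 in OBF-1-/- cells, 302 and 343 in Aiolos-/- cells and 314 and 349 in the double mutant. Its 6 mutant arrays lay above wild type, but the changes of 0.17 to 0.27 did not pass in limma, and neither did those of Mmp8 and Mmp9.

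S100a8 and S100a9 encode the subunits of calprotectin, the main cytosolic protein of neutrophils. S100a8 had 4574 and 4666 units in wild type, 5042 and 6211 in OBF-1-/- cells, 5071 and 5499 in Aiolos-/- cells and 5147 and 5589.7 in the double mutant. S100a9 had 6038 and 5943 units in wild type, 7111 and 7344 in OBF-1-/- cells, 6165 and 6189 in Aiolos-/- cells and 6237 and 6398 in the double mutant. For both subunits all 6 mutant arrays lay above wild type, by a small margin for S100a9 where Aiolos was lost. The subunits had log2 fold changes of 0.28 and 0.27 in OBF-1-/- cells, which did not pass (limma adjusted p = 0.3 and 0.172).

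Alox5ap, the activating protein of leukotriene synthesis, was at 266 and 297 units in wild type, 329 and 376 in OBF-1-/- cells, 322 and 331 in Aiolos-/- cells and 315 and 378 in the double mutant. Both wild type arrays were lower than all mutant arrays, with changes of 0.22 to 0.32 that did not pass. Anxa3, an annexin of neutrophil granules, ranged from 75.0 to 103 units over the arrays and passed in no comparison. Mgst1, a microsomal glutathione transferase found in many cell types, had 1472 and 1474 units in wild type, 1529 and 1338 in OBF-1-/- cells, 1075 and 1055 in Aiolos-/- cells and 799.8 and 1355 in the double mutant. Its Aiolos-/- and double-mutant arrays lay below wild type, but double-mutant replicate 2 was close to wild type and replicate 1 far below it. The log2 fold change of Mgst1 in the double mutant was -0.50 (limma adjusted p = 0.129). Ccl6, a chemokine of myeloid cells, had 144 and 127 units in wild type, 129 and 132 in OBF-1-/- cells, 114 and 113 in Aiolos-/- cells and 115 and 122 in the double mutant. Its 4 arrays without Aiolos lay below wild type, and the change of -0.25 in Aiolos-/- cells did not pass (limma adjusted p = 0.186). Of these 6 genes of calprotectin and other granulocyte proteins none was called in any comparison.

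**Figure D2:**
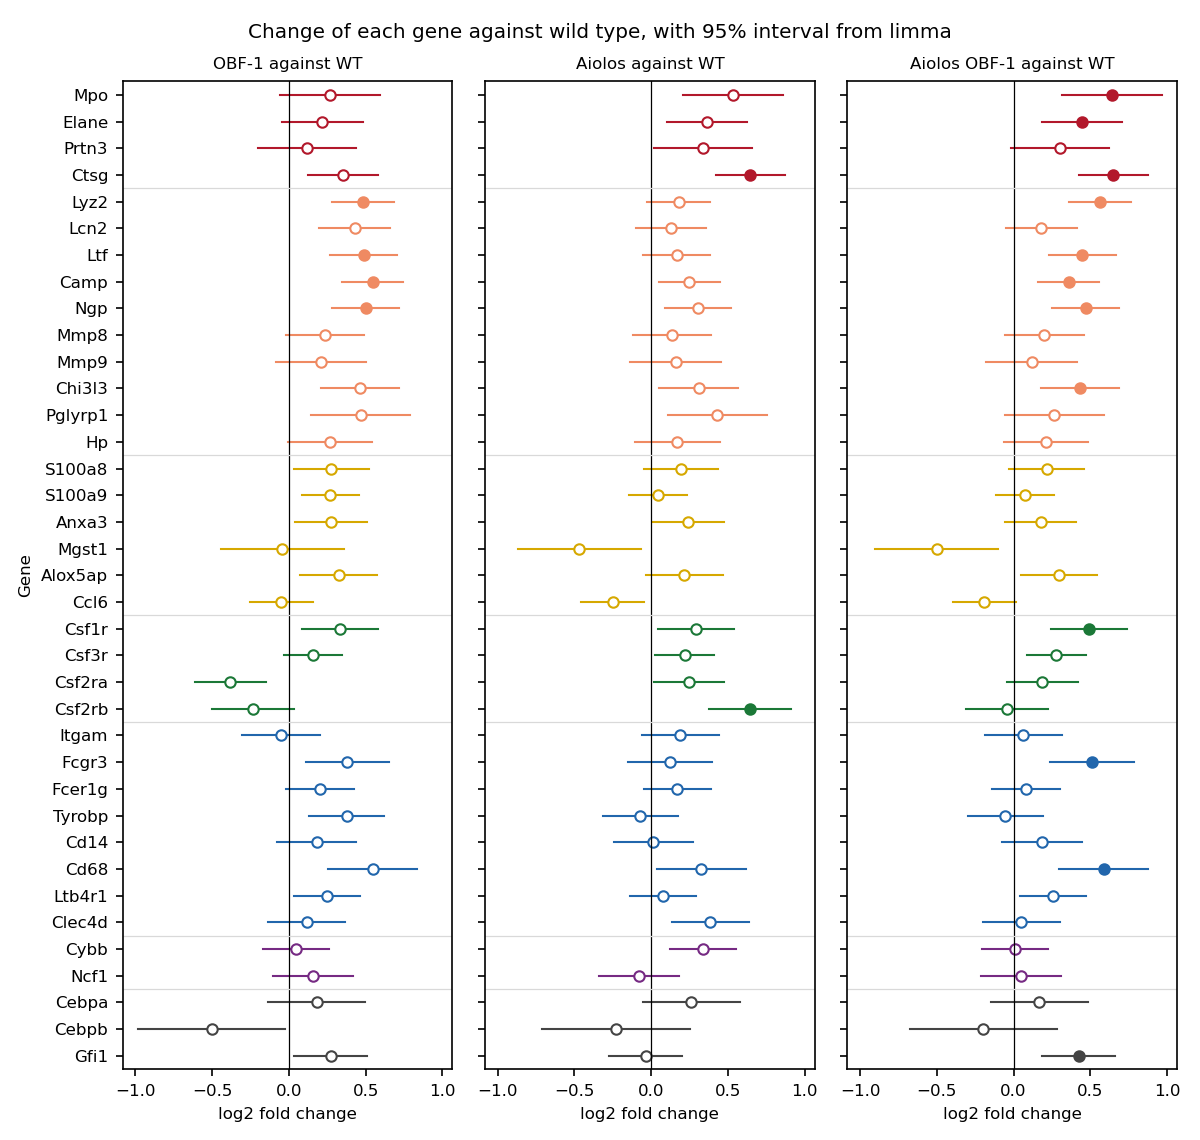
Points are the log2 fold changes of the 37 genes against wild type in the 3 mutants, lines are their 95% intervals from limma, filled points have an adjusted p under 0.05, and colours are the role groups. Filled points number 4 in OBF-1-/- cells, 2 in Aiolos-/- cells and 12 in the double mutant, all to the right of 0.

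Each of the 4 growth factor receptor genes ordered the genotypes in its own way. Csf1r, the M-CSF receptor of monocytes and macrophages, had 205 and 207 units in wild type, 232 and 289 in OBF-1-/- cells, 259 and 246 in Aiolos-/- cells and 275 and 305 in the double mutant. Both wild type arrays were the lowest, and the gene rose in the double mutant (log2 fold change 0.49, standard error 0.11, limma adjusted p = 0.0188). The other 2 probe sets of Csf1r, at mean intensities of 120.5 and 68.1 units, had changes of 0.34 and 0.05 there and did not pass (limma adjusted p = 0.0867 and 0.813).

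Csf3r, the G-CSF receptor that drives neutrophil formation, had 168 and 173 units in wild type, 185 and 194 in OBF-1-/- cells, 197 and 199 in Aiolos-/- cells and 209.6 and 203 in the double mutant. The genotypes did not overlap, in the order wild type, OBF-1 single mutant, Aiolos single mutant and double mutant, but the steps were small, and the largest, 0.28 in the double mutant, did not pass (limma adjusted p = 0.0757). Csf2ra, the binding chain of the GM-CSF receptor, was at 276 and 291 units in wild type, 197 and 239.8 in OBF-1-/- cells, 339 and 333 in Aiolos-/- cells and 331 and 314 in the double mutant. Both OBF-1-/- arrays were the lowest and the 4 arrays without Aiolos the highest. Csf2ra was higher in the double mutant than in OBF-1-/- cells (log2 fold change 0.57, standard error 0.11, limma adjusted p = 0.0151), whereas its lower level in OBF-1-/- cells did not pass against wild type (log2 fold change -0.38, limma adjusted p = 0.108). Its other probe set, with a mean of 90.7 units, had a change of 0.08 between the double mutant and OBF-1-/- cells (limma adjusted p = 0.735).

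Csf2rb, the common signalling chain of the GM-CSF, IL-3 and IL-5 receptors, was dim, with 42.0 and 40.0 units in wild type, 34.1 and 35.4 in OBF-1-/- cells, 71.4 and 57.3 in Aiolos-/- cells and 36.4 and 43.6 in the double mutant. Only the Aiolos-/- arrays stood out, and both were above all other arrays. Csf2rb rose there against wild type (log2 fold change 0.64, standard error 0.12, limma adjusted p = 0.0259) and was lower in the double mutant than in Aiolos-/- cells (log2 fold change -0.68, standard error 0.12, limma adjusted p = 0.00925). With these, 1 of the 37 genes was lower and 1 higher in the double mutant than in Aiolos-/- cells, where 1.19% and 1.75% of all probe sets were called lower and higher. Against OBF-1-/- cells, Csf2ra was the 1 gene called higher, beside 1.61% of all probe sets called higher, and none was called lower, beside 1.03%.

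Among the 8 surface receptors and adaptors, 2 rose in the double mutant (4.29% of all probe sets). Fcgr3, an IgG receptor of myeloid cells, had 79.3 and 76.3 units in wild type, 91.3 and 112 in OBF-1-/- cells, 89.7 and 79.7 in Aiolos-/- cells and 101 and 121 in the double mutant. The 4 arrays without OBF-1 were the highest, and the gene rose in the double mutant (log2 fold change 0.51, standard error 0.12, limma adjusted p = 0.0248). Cd68, a lysosomal protein of macrophages, gave 45.3 and 52.4 units in wild type, 62.3 and 81.0 in OBF-1-/- cells, 59.2 and 63.0 in Aiolos-/- cells and 67.8 and 78.9 in the double mutant. All mutant arrays lay above wild type, and replicate 2 lay above replicate 1 in each genotype. Cd68 rose in the double mutant (log2 fold change 0.59, standard error 0.13, limma adjusted p = 0.0174), and its change of 0.55 in OBF-1-/- cells did not pass (limma adjusted p = 0.0644).

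Tyrobp, the signalling adaptor DAP12, showed another order, with 637 and 722 units in wild type, 825 and 942 in OBF-1-/- cells, 644 and 649 in Aiolos-/- cells and 604 and 708 in the double mutant. Its OBF-1-/- arrays were the highest of the 8, and the other genotypes overlapped. The change of 0.38 against wild type did not pass (limma adjusted p = 0.135), nor did that of -0.43 in the double mutant against OBF-1-/- cells (adjusted p = 0.0708). Fcer1g, the common gamma chain of Fc receptors, had 220.1 and 232 units in wild type, 241 and 280.4 in OBF-1-/- cells, 246 and 263 in Aiolos-/- cells and 233 and 245 in the double mutant. Its mutant arrays lay above wild type by small margins, and no comparison passed.

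The remaining surface genes were below 100 units on all arrays. Itgam, which encodes CD11b, ranged from 31.2 to 43.2 units, and Cd14, the lipopolysaccharide co-receptor of monocytes, from 49.5 to 66.0. Ltb4r1, the leukotriene B4 receptor, ranged from 69.9 to 88.8, and Clec4d, a C-type lectin of myeloid cells, from 49.3 to 70.8. None of the 4 passed in any comparison, and their largest change against wild type was that of Clec4d in Aiolos-/- cells (log2 fold change 0.38, limma adjusted p = 0.112).

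The phagocyte oxidase makes superoxide. Cybb, the membrane subunit gp91phox, had 116 and 112 units in wild type, 119.8 and 116 in OBF-1-/- cells, 155 and 134 in Aiolos-/- cells and 118 and 112 in the double mutant. Its Aiolos-/- arrays were the highest, and the other genotypes lay close together. Ncf1, the cytosolic subunit p47phox, had 106 and 99.1 units in wild type, 118 and 110.4 in OBF-1-/- cells, 103 and 91.3 in Aiolos-/- cells and 119 and 94.0 in the double mutant. The double-mutant replicates of Ncf1 spanned most of the range of the 8 arrays, and neither subunit passed, with Cybb at 0.34 in Aiolos-/- cells (limma adjusted p = 0.105).

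Of the 3 measured regulators 1 was called higher, in the double mutant against wild type (4.29% of all probe sets) and against Aiolos-/- cells (1.75%). Cebpa, the C/EBP factor needed to form granulocyte and monocyte progenitors, was at 80.7 and 85.1 units in wild type, 77.5 and 114 in OBF-1-/- cells, 98.3 and 100.1 in Aiolos-/- cells and 96.3 and 90.0 in the double mutant. Its highest and lowest arrays were the 2 of OBF-1-/- cells, and no comparison passed. Cebpb, which acts in mature myeloid cells and in emergency granulopoiesis, had 79.7 and 71.4 units in wild type, 39.8 and 71.1 in OBF-1-/- cells, 56.9 and 72.8 in Aiolos-/- cells and 58.7 and 73.9 in the double mutant. Its OBF-1-/- arrays again lay far apart, and the change of -0.50 against wild type did not pass (limma adjusted p = 0.347).

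Gfi1, a repressor that promotes neutrophil over monocyte formation and is also used in lymphoid precursors, had 98.3 and 88.6 units in wild type, 124 and 102 in OBF-1-/- cells, 93.4 and 88.6 in Aiolos-/- cells and 127 and 124 in the double mutant. The double-mutant arrays were high, and the Aiolos-/- arrays were within the range of wild type. Gfi1 rose in the double mutant against wild type (log2 fold change 0.42, standard error 0.11, limma adjusted p = 0.0316) and against Aiolos-/- cells (log2 fold change 0.46, standard error 0.11, limma adjusted p = 0.0432). In OBF-1-/- cells its change of 0.27 did not pass (limma adjusted p = 0.299). The arrays of the double mutant and Aiolos-/- cells were run on 1 fluidics station.

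Taking the genotypes in turn, 31 of the 37 genes had positive log2 fold changes in OBF-1-/- cells (83.8%, against 55.7% of all probe sets), with a median of 0.27. The Aiolos single mutant also had 31 positive (57.3% of all probe sets), with a median of 0.19, and the double mutant 32 (52.1%), with a median of 0.21. The 3 comparisons share the wild type arrays, so a low wild type array raises all of them. Such an array also lowers the double-mutant change relative to the sum of both single-mutant changes. Both arrays lay above both wild type arrays for 24 genes in OBF-1-/- cells (25.8% of all probe sets), for 29 in Aiolos-/- cells (30.9%) and for 27 in the double mutant (25.9%). The difference between the double-mutant change and the sum of both single-mutant changes was negative for 31 of the 37 genes (56.3% of all probe sets), with a median of -0.23. No gene was called for it with limma, where 0.155% and 0.0309% of all probe sets were called higher and lower. An unadjusted p under 0.05 was found for 10 of the 37 and for 11.8% of all probe sets. The largest such difference was in Pglyrp1 (log2 fold change -0.63, standard error 0.21, limma adjusted p = 0.315).

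Calls were lost and gained when single arrays were left out. A fit without 1 array of a genotype leaves 1 there, with less precision for every probe set. Calls among all probe sets were not compared in such fits, so only log2 fold changes from them are given in this paragraph. Whether these genes depended on an array more than other genes did was not tested. Without OBF-1-/- replicate 2, the median log2 fold change of the 37 genes in that genotype was 0.13. This median was 0.37 without OBF-1-/- replicate 1, 0.25 without wild type replicate 1 and 0.26 without wild type replicate 2. In Aiolos-/- cells, over the 8 fits that left out 1 array, Ctsg had log2 fold changes of 0.60 to 0.69 and Csf2rb of 0.48 to 0.80. In the double mutant the median of the 37 genes was 0.20 without wild type replicate 1 and 0.24 without wild type replicate 2. Ctsg and Lyz2 in the double mutant had log2 fold changes of 0.54 to 0.76 and 0.50 to 0.63 over the 8 fits that left out 1 array. Between the double mutant and Aiolos-/- cells, the change of Csf2rb ran from -0.84 to -0.52 and that of Gfi1 from 0.42 to 0.50. Between the double mutant and OBF-1-/- cells, that of Csf2ra ran from 0.43 to 0.71. With variances estimated gene by gene, without the moderation of limma, no gene was called in any comparison.

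The array-by-array view describes the groups without any test. For each array, a group's level is the mean over its genes of the log2 intensity minus that gene's mean over the 8 arrays. Over all 37 genes it was -0.16 on both wild type arrays, -0.04 and 0.16 in OBF-1-/- cells, 0.02 and 0.03 in Aiolos-/- cells and 0.04 and 0.10 in the double mutant. Over all probe sets these levels lay between -0.01 and 0.01. The lowest value of 23 of the 37 genes was on a wild type array, as it was for 31.2% of all probe sets, and the other genes were lowest on a mutant array. Ccl6 and Cebpb were at their highest on wild type replicate 1.

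The primary granule genes stood at -0.21 and -0.40 in wild type, -0.24 and 0.11 in OBF-1-/- cells, 0.17 and 0.16 in Aiolos-/- cells and 0.31 and 0.10 in the double mutant. OBF-1-/- replicate 1 thus lay between the wild type arrays for this group. Secondary and later granule genes were at -0.24 on both wild type arrays, 0.04 and 0.30 in OBF-1-/- cells, -0.04 and 0.01 in Aiolos-/- cells and 0.04 and 0.13 in the double mutant. On OBF-1-/- replicate 1 all 4 primary granule genes were below their own mean. Of the 10 secondary granule genes 5 were above theirs, as were 53.3% of all probe sets. Growth factor receptors were at -0.14 and -0.13 in wild type, -0.26 and -0.08 in OBF-1-/- cells, 0.26 and 0.16 in Aiolos-/- cells and 0.06 and 0.13 in the double mutant. The level of this group was lowest on OBF-1-/- replicate 1 and highest on Aiolos-/- replicate 1.

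**Figure D3:**
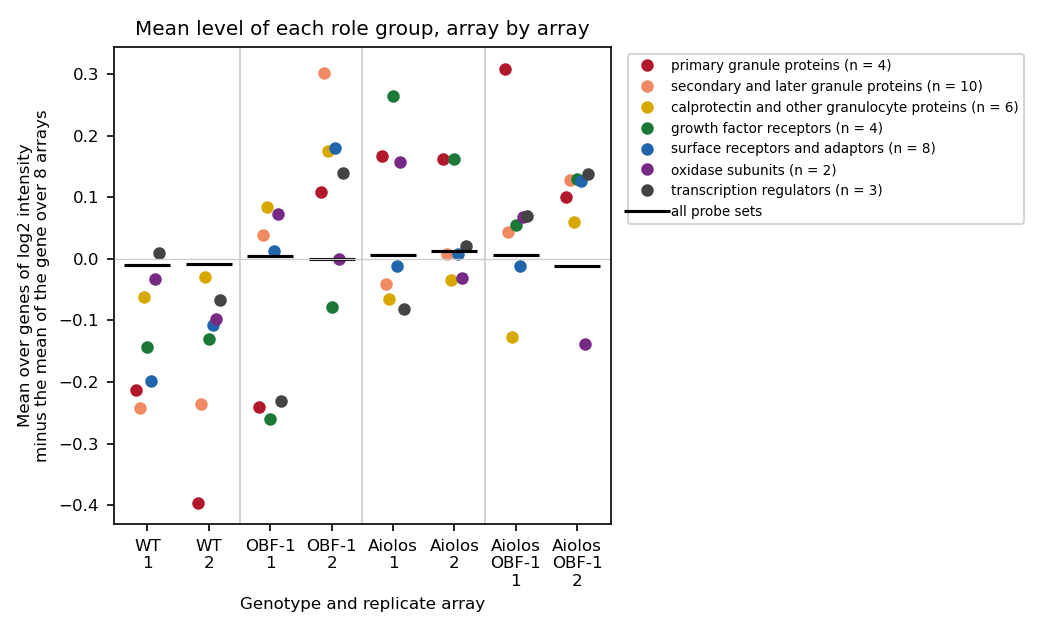
Points are the mean level of each role group on each of the 8 arrays, as log2 intensity minus the mean of each gene over the 8 arrays, and black bars are the same over all probe sets. Primary granule genes run from -0.40 on wild type replicate 2 to 0.31 on double-mutant replicate 1, and secondary granule genes from -0.24 to 0.30 with their highest point on OBF-1 replicate 2.

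Surface receptors and adaptors were at -0.20 and -0.11 in wild type, 0.01 and 0.18 in OBF-1-/- cells, -0.01 and 0.01 in Aiolos-/- cells and -0.01 and 0.13 in the double mutant. Calprotectin and the other granulocyte proteins were highest on OBF-1-/- replicate 2 (0.18) and lowest on double-mutant replicate 1 (-0.13), where Mgst1 was low. The oxidase subunits were highest on Aiolos-/- replicate 1 (0.16) and lowest on double-mutant replicate 2 (-0.14). The regulators were about equally high on OBF-1-/- replicate 2 and double-mutant replicate 2 (0.14 on each). They were lowest on OBF-1-/- replicate 1 (-0.23), the array on which Cebpb was lowest. Cebpa was highest on OBF-1-/- replicate 2, Cebpb on wild type replicate 1 and Gfi1 on double-mutant replicate 1. OBF-1-/- replicate 2 held the highest value of 17 of the 37 genes, where it held the highest of 10.8% of all probe sets.

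The replicate arrays of a genotype are taken to come from different pools of mice, and differences between them carry no change of genotype. In OBF-1-/- cells 32 of the 37 genes were higher on replicate 2 than on replicate 1, where 49.1% of all probe sets were, with a median log2 difference of 0.22. All 4 primary and all 10 secondary granule genes were among them, with medians of 0.38 and 0.24, and so were all 4 growth factor receptors and 7 of the 8 surface genes. Both oxidase subunits were lower on replicate 2, and so was Gfi1.

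In the double mutant the granule classes parted: all 4 primary granule genes were lower on replicate 2, with a median of -0.23, while 9 of the 10 secondary granule genes were higher, with a median of 0.07. In all 23 of the 37 genes were higher on replicate 2 there, where 43.2% of all probe sets were. Wild type had the same directions, with all 4 primary granule genes lower on replicate 2 (median -0.17) and 7 of the 10 secondary granule genes higher (median 0.05), and 22 of 37 higher in all beside 51.7% of all probe sets. The Aiolos-/- replicates were close, with 21 of 37 higher on replicate 2 beside 51.4% of all probe sets, and median differences of -0.01 and 0.05 for the granule classes. The oxidase subunits and Gfi1 were lower on replicate 2 in all 4 genotypes, although replicate numbers do not pair the arrays of different genotypes.

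**Figure D4:**
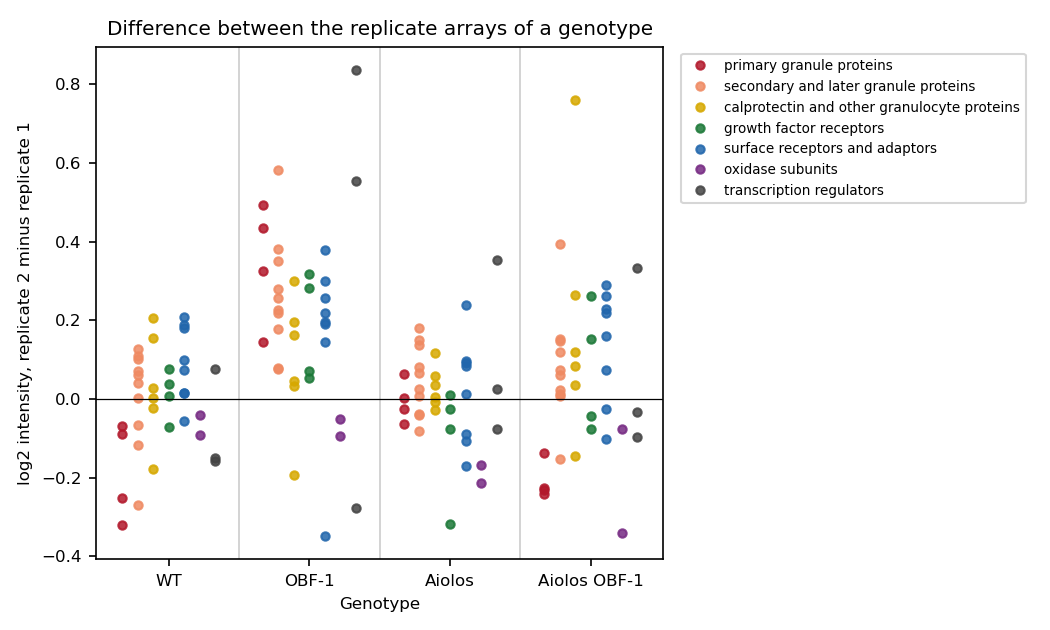
Each point is 1 of the 37 genes, placed at its log2 intensity on replicate 2 minus that on replicate 1 within a genotype, with colours for the role groups. In OBF-1-/- cells 32 of 37 points lie above 0, and in wild type and the double mutant the 4 primary granule points lie below 0.

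Markers of other cell types moved with these genes on some arrays, and their part in the result was not tested. The 7 measured erythroid markers of 10 listed were at a level of -0.42 and -0.43 in wild type, 0.10 and 0.55 in OBF-1-/- cells, -0.24 and 0.08 in Aiolos-/- cells and 0.32 and 0.04 in the double mutant. Their summed intensity was 996 and 917 units in wild type, 1574 and 2180.4 in OBF-1-/- cells, 1109 and 1411 in Aiolos-/- cells and 1874 and 1561 in the double mutant. Of these sums, Car2 alone held 427 units on wild type replicate 1 and 1017 on OBF-1-/- replicate 2. The erythroid markers were thus at their highest on OBF-1-/- replicate 2, as the secondary granule genes were. Car1 and Car2, carbonic anhydrases, and Klf1, the erythroid transcription factor, rose in OBF-1-/- cells (log2 fold changes 1.46, 1.20 and 0.89) and in the double mutant (1.34, 1.18 and 0.69), all with an adjusted p of at most 0.0127 from limma. The other 4 measured erythroid markers were not called in these mutants. The lowest change of the 7 was 0.25 in OBF-1-/- cells and 0.02 in the double mutant. Of haemoglobin, 1 probe set of Hba-a1 was used, at 18.2 to 27.5 units. Another 3 of Hba-a1 and 1 of Hbb-b1 were left out because they match several genes.

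The 7 measured markers of basophils, mast cells and eosinophils, of 8 listed, were at levels of 0.35 and 0.20 in Aiolos-/- cells and 0.16 and -0.17 in the double mutant, with -0.27 and -0.16 in wild type and -0.13 and 0.02 in OBF-1-/- cells. Their summed intensity ran from 316 units in wild type replicate 1 to 573 in Aiolos-/- replicate 1, the array on which Csf2rb was highest. Epx, eosinophil peroxidase, rose in Aiolos-/- cells (log2 fold change 0.91, standard error 0.16, limma adjusted p = 0.0187). It also rose in the double mutant (log2 fold change 0.59, standard error 0.16, limma adjusted p = 0.042), where its arrays read 74.6 and 47.4 units. Mcpt8, a basophil protease, rose in Aiolos-/- cells (log2 fold change 0.81, standard error 0.17, limma adjusted p = 0.0342). Prg2 was not called against wild type, at 70.7 and 69.5 units there, 157 and 146 in Aiolos-/- cells and 163 and 75.1 in the double mutant. Changes against wild type were positive for all 7 markers in Aiolos-/- cells (57.3% of all probe sets) and for 4 in the double mutant (52.1%). Ms4a2 had 34.8 and 36.9 units in wild type and 31.2 and 29.7 in the double mutant. Fcer1a and Il5ra, defining receptors of these cells, were no higher than 15.4 and 25.3 units.

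Of 9 measured T cell markers 8 were below 100 units on all arrays, and Lat, a signalling adaptor also found outside T cells, rose in Aiolos-/- cells and the double mutant (log2 fold changes 0.43 and 0.64, limma adjusted p = 0.0475 and 0.00155). Of 6 measured NK and dendritic cell markers and 7 measured stroma markers none passed against wild type, and of 5 measured megakaryocyte markers Ppbp rose in the double mutant (0.52, limma adjusted p = 0.0316). RMA values are above 0 by construction, so no marker is listed at 0. Of the 11 pre-B cell markers 2 rose and 2 fell in OBF-1-/- cells, beside 0.946% and 1.14% of all probe sets. In Aiolos-/- cells 1 fell, beside 1.01% of all probe sets. In the double mutant 4 rose and 3 fell, beside 4.29% and 4.28%. Il2ra, whose product CD25 marks this stage, rose from 421 ± 34.5 units in wild type to 637 ± 55.3 in OBF-1-/- cells and 664 ± 54.2 without both factors (± SD, n = 2 arrays for each genotype; log2 fold changes 0.60 and 0.66, limma adjusted p = 0.0116 and 0.00203). Il7r rose in the same mutants (log2 fold changes 0.58 and 0.88), and Cd79b (-0.48 and -0.81) and Vpreb3 (-2.36 and -1.72) fell in them. Ebf1, a factor of early B cells, fell in Aiolos-/- cells (log2 fold change -0.58, limma adjusted p = 0.0297).

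A second list of 32 myeloid genes, none of them among the 40, had 27 measured. Against wild type 2 rose in OBF-1-/- cells, 1 rose and 1 fell in Aiolos-/- cells, and 5 rose and 1 fell in the double mutant. Of all probe sets 0.946% rose and 1.14% fell in OBF-1-/- cells, and 0.831% and 1.01% in Aiolos-/- cells. In the double mutant 4.29% of all probe sets rose and 4.28% fell. C1qa and C1qc, chains of the complement component C1q that macrophages make, rose in OBF-1-/- cells (log2 fold changes 0.98 and 1.06, limma adjusted p = 0.0195 and 0.0112) and in the double mutant (0.81 and 0.94). C1qb, another chain, had 65.0 and 77.4 units in wild type and 81.0 and 86.3 in OBF-1-/- cells, where it was not called. It had 73.0 and 78.0 in Aiolos-/- cells and 80.5 and 90.1 in the double mutant. C1qc had 45.1 and 54.3 units in wild type, 93.7 and 113 in OBF-1-/- cells, 59.9 and 63.5 in Aiolos-/- cells and 74.7 and 120.1 in the double mutant. All 4 arrays without OBF-1 lay above the other 4, as for Lyz2. Mpeg1, a pore-forming protein of macrophages, rose in the double mutant (0.64, limma adjusted p = 0.0108). Marco and Fcgr1, on the same list, were no higher than 29.3 and 15.7 units on any array.

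Klf4, a transcription factor of monocytes that also acts in B cell precursors, had 274 and 160.3 units in wild type, 109 and 124 in OBF-1-/- cells, 72.6 and 112 in Aiolos-/- cells and 95.9 and 86.6 in the double mutant. It fell in Aiolos-/- cells (log2 fold change -1.22, standard error 0.23, limma adjusted p = 0.0244) and in the double mutant (log2 fold change -1.20, standard error 0.23, limma adjusted p = 0.0063), and its wild type replicates were far apart. Spi1, which encodes PU.1, was at 486 and 487 units in wild type, 405 and 470.1 in OBF-1-/- cells, 469 and 418 in Aiolos-/- cells and 430.1 and 366 in the double mutant and passed in no comparison. The median log2 fold change of these 27 genes was 0.21 in OBF-1-/- cells, 0.17 in Aiolos-/- cells and 0.21 in the double mutant, close to the 0.27, 0.19 and 0.21 of the 37. On OBF-1-/- replicate 2 their level was 0.17, the highest of the 8 arrays.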

How the data were processed

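Intensities of 8 MOE430A arrays, 2 per genotype, were deposited on a linear scale. The authors made them with RMA, which corrects background, equalizes the distributions of the arrays and summarizes the probes of each set; its version is not given in the sources used here. The study's methods also name Affymetrix Microarray suite 5 and GeneSpring 5. Genotypes came from the sample titles, and replicate numbers did not pair the arrays (correlation of deviations between genotypes -0.0875 to 0.103).

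Of 22690 probe sets 64 controls were left out. Gene names came from the platform annotation, updated through a RefSeq gene table: 20380 probe sets had 1 symbol, 691 several and 1555 none. The log2 of the deposited intensities was analysed with limma 3.58.1 (R 4.3.3) in a model of 1 mean for each genotype, with variances moderated by 7.69 prior beside 4 residual degrees of freedom, and p-values were adjusted by Benjamini-Hochberg over 22626 probe sets. The fit was tested on simulated data. The genes and lists were chosen with earlier results of these data known. All genes of the set are named. Those with a mean of at least 100 units, a call, or a role as regulator or growth factor receptor are given on every array, and up to 4 called genes are named from each comparison list. No p-value is given for a list, and p-values measure only the spread between the replicate arrays, taken as pools.

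Alternatives were quantile normalization again, median centring, 2 intensity filters, no moderation, a trend and robust prior, a replicate block, only the compared genotypes, all probe sets of a gene, log2 of the value plus 16, and leaving out each array.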

Additional observations from a re-analysis of the deposited data

How the results depend on the processing

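The 21 calls were repeated 364 times under the alternatives, and 0 changed direction. Repeats that passed are not counted here. With all probe sets of a gene, changes were averaged and the lowest adjusted p was taken, so no call could be lost there. The change of Csf1r in the double mutant fell to 0.30 in this way. That of Csf2ra between the double mutant and OBF-1-/- cells fell to 0.33. The calls against wild type (4 in OBF-1-/-, 2 in Aiolos-/- and 12 in double-mutant cells), those of the double mutant against Aiolos-/- cells (2) and against OBF-1-/- cells (1) all came to 0 without moderation of variances. In OBF-1-/- cells the count was 0 among probe sets with a genotype mean of 100 to 1000 units, a filter that leaves 20 of the genes and takes out all 4 called ones (Lyz2, Ltf, Camp and Ngp), 7 with the trend and robust prior and 2 with only the genotypes compared. For Aiolos-/- cells it was 1 with repeated quantile normalization, with log2 of the value plus 16 and with either intensity filter, both of which take out Csf2rb. The double mutant gave 1 against Aiolos-/- cells with the filter at 100 to 1000 units, where Csf2rb is again taken out, and 2 against OBF-1-/- cells with either filter, with the trend and robust prior and with the replicate block. The replicate block moved no other count by over 1.5 times. Other causes of these shifts were not tested.

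Leaving out 1 array gave 0 to 7 calls in OBF-1-/- cells, 0 to 3 in Aiolos-/- cells, 4 to 12 in the double mutant, 0 to 2 for the double mutant against Aiolos-/- cells and 0 to 2 against OBF-1-/- cells. Each such fit leaves 1 array in a genotype, with less precision for every probe set. Calls among all probe sets were not compared in these fits. The counts therefore cannot show whether these genes depended on an array more than other genes did. In the same fits, the median log2 fold change of the 37 genes ran from 0.13 to 0.37 in OBF-1-/- cells. It ran from -0.13 to 0.083 for the double mutant against OBF-1-/- cells and from -0.34 to -0.10 for the interaction. Each range had its ends without 1 or the other OBF-1-/- array. Single genes below 100 units rest on dim signal, and 2 arrays per genotype limit every call.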
